A study of Mus musculus with 12 samples.

Results

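Acyl-CoA thioesterases cut the thioester bond between a fatty acid and coenzyme A, which gives back the free acid and the coenzyme. They act in opposition to the acyl-CoA synthetases and so bear on how much acyl-CoA each compartment of a liver cell holds for oxidation, ester synthesis or signalling. Mouse type I enzymes (Acot1 to Acot6) arose by gene duplication and differ mainly in where they act, which is the cytosol for Acot1, the mitochondria for Acot2 and the peroxisomes for Acot3 and Acot4. Type II enzymes (among them Acot8, Acot9, Acot12 and Acot13) share the reaction but not the sequence, and several genes of both types are known targets of PPARα, the nuclear receptor that senses fatty acids.

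The family was read by 15 of the 45037 probe sets of Affymetrix mouse expression arrays, a probe set being a group of short probes that measures a transcript. Of these, 14 were taken because the platform annotation names Acot1, Acot2, Acot3, Acot4, Acot8, Acot9, Acot12 or Acot13 for them (8 genes). The remaining probe set is named ACOT1 in the study, whereas the annotation table used here gives it no gene, so it is called the unnamed probe set (its ID stands with the processing). Measured values entered this choice, since the unnamed probe set, 1422925_s_at (Acot3) and 1422077_at (Acot4) stand on the study's own list of changed transcripts. For these 3 the values are a description with no test, and for the other 12 each adjusted p is that over all 45037 probe sets. Those 12 were read on the same arrays and in the same contrasts as the other 3, so their calls are not independent evidence of a change in the family.

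The arrays held liver RNA of adult male C57BL/6 mice. In the SHS4m+1m recovery group (4 arrays, replicates 70 to 73) mice had breathed secondhand smoke (SHS) for 4 months and then clean air for 1 month. In the SHS4m group (4 arrays, replicates 66 to 69) they were sampled at the end of the 4 months of SHS, and the control group (4 arrays, replicates 1 to 4) was sham-treated with filtered air. The study kept sham mice with and without the recovery time, and the labels do not give which of these the 4 control arrays are, so that an age difference of 1 month from one of the SHS groups cannot be told apart from the exposure. Signals are the deposited intensities on a linear scale, and values below 32 (29.9% to 33.5% of each array) were raised to 32 before the log2 was taken. The number of arrays limits the precision, and the labels do not say that each array is a separate mouse, so that a p-value measures the spread between these arrays. Control probe sets for actin at both transcript ends, whose 3′ over 5′ ratio goes up when RNA is degraded, gave 8.82 for recovery replicate 72 against 3.24 to 4.64 for the remaining 11 arrays. With Gapdh the same array had a ratio of 4.52 and the others 2.24 to 2.95. All 6 hepatocyte markers read (Alb, Apoa1, Ttr, Cps1, Tat and Ass1) were measured, with a summed signal of 194145 to 305088 in recovery mice, 225098 to 251630 in SHS4m mice and 244174 to 282315 in controls. Whole liver was measured, so that fewer cells of a type and less RNA per cell cannot be told apart.

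Type I genes lie next to each other on mouse chromosome 12, in the order Acot2, Acot1, Acot4, Acot3, Acot5 and Acot6. The 250 bases before the start are shown for Acot3, Acot4 and Acot1 (the last because the unnamed probe set bears its name in the study). These are neighbouring copies whose recovery differences from control, given below, were of unlike size. Differences between the genes were not tested, and the probe sets of Acot3 and in part of Acot4 were chosen from their values. The sequences come from RefSeq on build GRCm38.p6, plus strand, and end at the base before the start, at chr12:84051894-84052143 for Acot3, chr12:84038129-84038378 for Acot4 and chr12:84009252-84009501 for Acot1. Capitals mark a match to a searched motif.
Acot3: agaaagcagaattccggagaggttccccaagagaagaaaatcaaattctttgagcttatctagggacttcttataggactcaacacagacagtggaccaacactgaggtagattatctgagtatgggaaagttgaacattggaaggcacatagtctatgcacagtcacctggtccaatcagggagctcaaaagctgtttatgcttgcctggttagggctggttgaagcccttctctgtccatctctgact
Acot4: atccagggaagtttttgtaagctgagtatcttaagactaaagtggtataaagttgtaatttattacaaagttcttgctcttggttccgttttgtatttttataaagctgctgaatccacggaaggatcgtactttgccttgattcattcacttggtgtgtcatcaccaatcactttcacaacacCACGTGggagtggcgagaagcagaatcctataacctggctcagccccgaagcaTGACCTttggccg
Acot1: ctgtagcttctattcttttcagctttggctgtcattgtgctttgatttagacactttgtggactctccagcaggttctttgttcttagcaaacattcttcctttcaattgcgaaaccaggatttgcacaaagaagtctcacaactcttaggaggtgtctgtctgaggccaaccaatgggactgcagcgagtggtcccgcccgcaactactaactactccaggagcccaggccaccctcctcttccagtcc
The motifs searched on both strands were AGGTCANAGGTCA (the element bound by PPARα with its partner), AGGTCA (the single site of that element, which any full match also contains), CACGTG (the E-box of the clock proteins) and TTATGNAA (the D-box). Of 32851 RefSeq promoter windows of this length, 0.0335% hold the first, 14.0% the single site, 6.02% the E-box and 3.07% the D-box. The Acot4 window has a single site whose first base lies 13 bases before the start and an E-box at 66 bases. None of the 4 motifs is in the windows of Acot3 or Acot1, and of the 7 genes of the family that the table holds only Acot12 has a further match, a single site at 110 bases. These are matches of letters and no measure of binding.

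After recovery a pair of probe sets differed from the other groups by more than the rest of the family did, as their choice from measured values led to. The signal of the unnamed probe set was 2143, 2129.7, 1979 and 1615 in SHS4m+1m recovery mice, 206, 136, 92.6 and 125 in SHS4m mice, and 181, 170.4, 13.5 and 198 in controls. All 4 recovery arrays lay above all 8 other arrays, while SHS4m mice and controls overlapped. Mean log2 signals (± SD, n = 4 in each group) were 10.93 ± 0.19 in recovery mice, 7.07 ± 0.47 in SHS4m mice and 6.89 ± 1.26 in controls. The difference was 4.05 (standard error 0.54, 16.5-fold) between recovery mice and controls and 3.87 (standard error 0.54, 14.6-fold) between recovery and SHS4m mice. Between SHS4m mice and controls it was 0.18 (standard error 0.54). One control array, replicate 3, lay below 32 and accounts for the wide control spread. Without it the recovery difference from control was 3.42 (10.7-fold) and that of SHS4m mice from control was -0.45, so that only the direction of the recovery difference was kept.

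**Figure D1:**
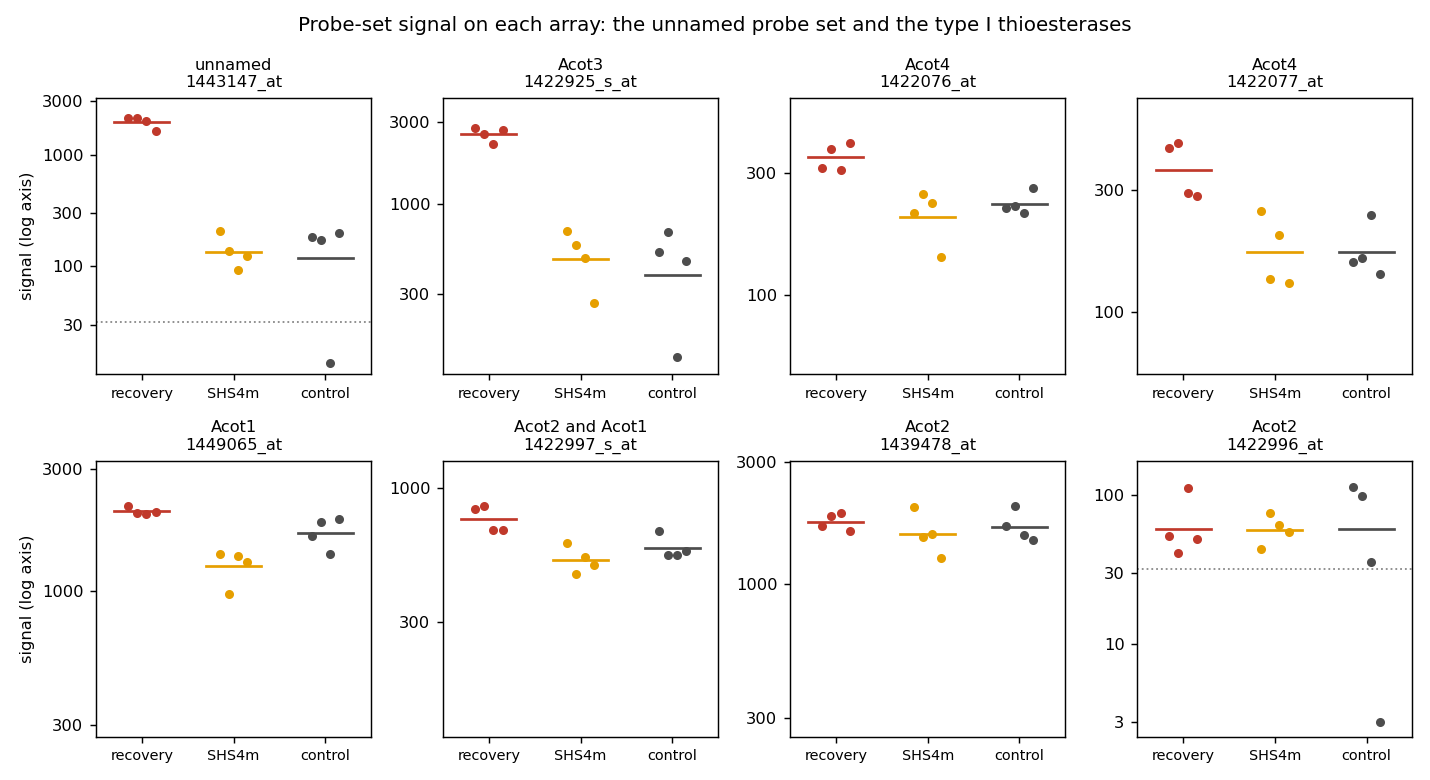
Probe-set signal on each array (y axis, log scale) for the unnamed probe set and those of Acot1 to Acot4, in SHS4m+1m recovery mice, SHS4m mice and controls (x axis, 4 arrays per group). Points are arrays, bars are group means taken on the log2 scale after the floor, and the dotted line is the floor of 32. Recovery arrays of the unnamed probe set and Acot3 lie at 1615 or more, all above the 695 that no SHS4m or control array of the pair exceeds.

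Acot3, which encodes a peroxisomal enzyme for long-chain acyl-CoA, had the other large difference. Its probe set 1422925_s_at had signals of 2760.3, 2539, 2233 and 2703 in recovery mice, 695, 573, 487 and 265 in SHS4m mice, and 526, 688, 128 and 468 in controls. Again all recovery arrays lay above all others, and control replicate 3 was the lowest of the 12. It was 6.65-fold higher in recovery mice than in controls and 5.36-fold higher than in SHS4m mice (log2 2.42), each with a standard error of 0.49 on the log2 scale. Between SHS4m mice and controls the log2 difference was 0.31 (standard error 0.49), and -0.22 without control replicate 3. Without recovery replicate 72, the array with the high actin ratio, the log2 difference from control was 2.80 for Acot3 and 4.04 for the unnamed probe set. The suffix _s_at marks probes that may match more than one transcript, and the type I genes are close copies, so how much of the signal of 1422925_s_at comes from Acot3 alone was not tested.

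Acot4, whose peroxisomal enzyme in the mouse cleaves succinyl-CoA, was read by a pair of probe sets that moved the same way by different amounts. Signals of 1422077_at were 438, 459.0, 294 and 285 in recovery mice, 249.7, 135, 200.4 and 131 in SHS4m mice, and 157, 163, 239.6 and 142 in controls. Every recovery array lay above every other array, with the gap smallest between recovery replicate 73 and SHS4m replicate 66. Its log2 difference was 1.07 (standard error 0.26) from control, 1.06 (standard error 0.26) from SHS4m mice and 0.01 (standard error 0.26) between SHS4m mice and controls.
The other Acot4 probe set, 1422076_at, was not among those chosen from their values. Its signals were 315, 374, 308 and 393 in recovery mice, 209.9, 248, 229.7 and 142 in SHS4m mice, and 219, 223, 209.9 and 261 in controls, again with no overlap of the recovery arrays with the others. The log2 difference between recovery and SHS4m mice was 0.77 (95% confidence interval 0.39 to 1.14), which passed the threshold of an adjusted p under 0.05 (limma, adjusted p = 0.0459). From control it was 0.60 (interval 0.23 to 0.98, adjusted p = 0.119), which missed it, although it passed when SHS4m replicate 69, the lowest array, was left out of the model (adjusted p = 0.0294). The call against SHS4m mice was lost in 15 of 18 alternatives, among them leaving out any 1 array of control replicates 1 to 4, SHS4m replicates 66 or 68 or recovery replicates 70 to 73 (adjusted p up to 0.132 over all alternatives).

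Acot1 itself, the cytosolic enzyme, had small differences at the probe set that the annotation assigns to it. The signals of 1449065_at were 2157, 2025, 2000.05 and 2044 in recovery mice, 1399.5, 971, 1368 and 1305 in SHS4m mice, and 1638, 1855, 1395 and 1912 in controls. Recovery mice lay above both other groups on every array, and SHS4m mice overlapped with controls only through SHS4m replicate 66 and control replicate 3. The log2 difference of recovery from SHS4m mice was 0.72 (standard error 0.13, 95% confidence interval 0.43 to 1.01, 1.65-fold) and passed the threshold (limma, adjusted p = 0.0224). From control it was 0.29 (interval -0.002 to 0.57, adjusted p = 0.381) in recovery mice and -0.43 (interval -0.72 to -0.15, adjusted p = 0.0914) in SHS4m mice, and neither passed. The call against SHS4m mice was lost without any 1 of recovery replicates 70 to 73 (adjusted p 0.0505 to 0.0570). The unnamed probe set and the probe set annotated to Acot1 thus differed from control by 4.05 and 0.29 on the log2 scale in the same recovery mice, and which transcript the unnamed one measures cannot be told from the sources used here.
A shared probe set, 1422997_s_at, names both Acot2 and Acot1. It had signals of 823, 851, 682 and 687 in recovery mice, 609, 460.3, 538 and 501 in SHS4m mice, and 679, 545, 547 and 565 in controls. The recovery arrays again lay above all others, by a narrow margin over control replicate 1. Its log2 difference of 0.53 from SHS4m mice (interval 0.28 to 0.78) passed the threshold (limma, adjusted p = 0.0419), and those of 0.38 in recovery mice (adjusted p = 0.143) and -0.15 in SHS4m mice (adjusted p = 0.607) from control did not. This call was lost in 15 of 18 alternatives, among them leaving out any 1 of control replicates 2 to 4, SHS4m replicates 67 to 69 or recovery replicates 70 to 73 (adjusted p up to 0.105 over all alternatives).
In the comparison of recovery with SHS4m mice, in which these Acot4, Acot1 and shared probe sets passed, 1 of 6 Kupffer cell and macrophage markers was called as well. It was Clec4f, with a higher signal (log2 0.46, limma, adjusted p = 0.0442), where 1.32% of all probe sets were called higher and 1.22% lower. Marco of the same list went the other way (log2 -0.99, not called), and the median of the 6 was 0.24. The summed signal of the 6 was 8551 to 12451 in recovery mice and 7713 to 9986 in SHS4m mice, and none of the 6 was below the floor on all arrays. Of 5 stellate cell markers 0 were called there with limma (3 had an unadjusted p under 0.05), with a median log2 difference of 0.59. The part of these cell types in the thioesterase differences was not tested.

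Acot2, the mitochondrial enzyme, had the narrowest differences among the bright type I probe sets. Signals of 1439478_at ranged from 1603 to 1882 in recovery mice, from 1258 to 1990.5 in SHS4m mice and from 1481 to 2018 in controls, and all groups overlapped. The log2 difference from control was 0.06 (95% confidence interval -0.25 to 0.38) in recovery mice and -0.10 (interval -0.41 to 0.21) in SHS4m mice. These intervals leave room for 0.84-fold to 1.30-fold of control in recovery mice and 0.75-fold to 1.16-fold in SHS4m mice. The dimmer probe set 1422996_at (signals of 2.99 to 114 over the 12 arrays) had intervals of more than 1 log2 unit on either side of 0 and gives no reading.

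**Figure D2:**
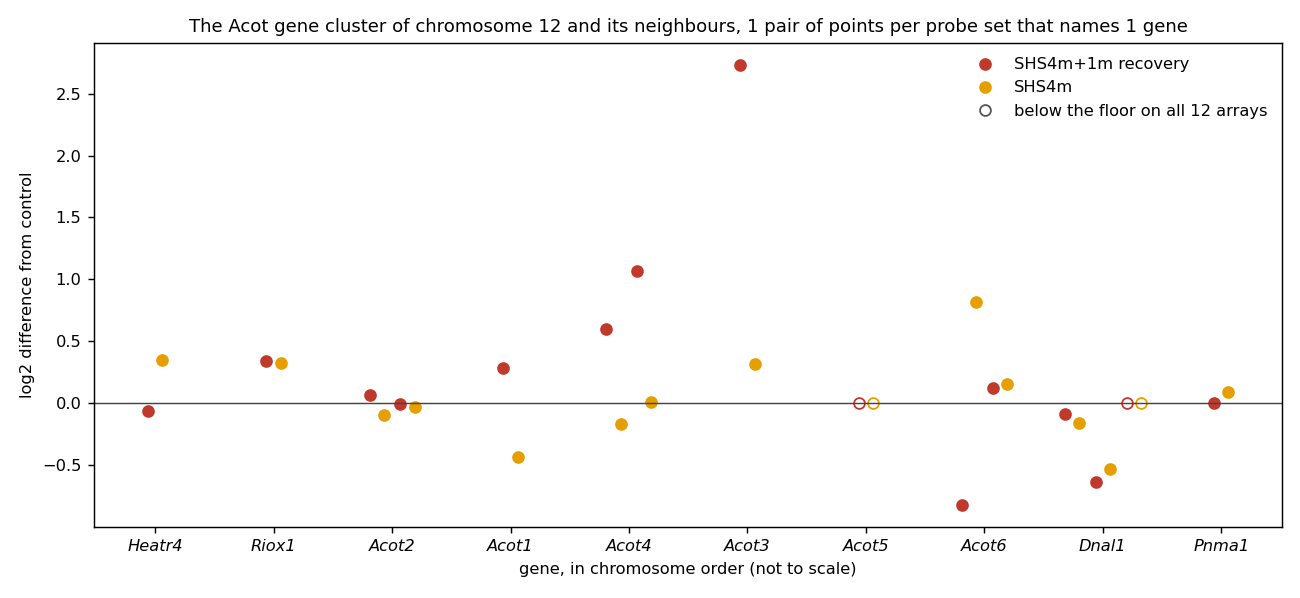
Log2 difference from control (y axis) in SHS4m+1m recovery and SHS4m mice for genes of the Acot cluster on mouse chromosome 12 and 2 neighbours on each side, in gene order (x axis, not to scale), with 1 pair of points per probe set that names 1 gene. Open circles are probe sets below the floor on all arrays. The recovery points of Acot3 and, at 1.07, of Acot4 are the highest, while those of Riox1, Acot2 and Acot1 lie at 0.34 or below.

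The other genes along this stretch of the chromosome were looked at after the member values had been seen, and differences between genes were not tested. Acot5, a peroxisomal type I enzyme, was below the floor on all 12 arrays and gives no reading. Acot6, a further type I gene, had log2 differences from control of -0.82 (adjusted p = 0.668) in recovery mice and 0.82 (adjusted p = 0.586) in SHS4m mice at a probe set below the floor on 5 arrays (1428803_at), and of 0.12 and 0.16 at another (1460388_at). Outside the cluster, Heatr4 and Riox1 before Acot2 and Dnal1 and Pnma1 after Acot6 had no probe set past the threshold against control. The only one of these 4 genes with a probe set above the floor on every array and a difference over 0.3 was Riox1, at 0.34 (adjusted p = 0.415) in recovery mice and 0.32 (adjusted p = 0.353) in SHS4m mice.

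Acot12, the cytosolic enzyme that cleaves acetyl-CoA and is abundant in liver, had another order of groups than the type I genes. Signals of 1419395_at were 1991, 1584, 2167 and 2193 in recovery mice, 2122, 2017, 2177 and 1799.7 in SHS4m mice, and 1466, 1481, 1093 and 1105 in controls. Both exposed groups lay above all control arrays and overlapped with each other, and control replicates 3 and 4 lay below control replicates 1 and 2. Relative to control the log2 difference was 0.63 (95% confidence interval 0.32 to 0.94, adjusted p = 0.0535) in recovery mice, just outside the threshold, and 0.67 (interval 0.36 to 0.98, limma, adjusted p = 0.0229) in SHS4m mice. Between recovery and SHS4m mice it was -0.04 (interval -0.35 to 0.27).
The other bright Acot12 probe set, 1449457_at, had the same order. Its signals were 2729.7, 3026, 2621 and 2875 in recovery mice, 2804, 2923, 2665 and 2714 in SHS4m mice, and 2335, 2365, 1892 and 2145 in controls, with no overlap of either exposed group with control and control replicates 3 and 4 again the lowest. Acot12 by this probe set was 1.29-fold higher in recovery mice (log2 0.37, interval 0.20 to 0.53, limma, adjusted p = 0.0371) and 1.28-fold higher in SHS4m mice (log2 0.35, interval 0.19 to 0.51, adjusted p = 0.0238) than in controls. The difference between recovery and SHS4m mice was 0.02 (interval -0.15 to 0.18). The remaining probe set, 1433064_at, was below the floor on all 4 SHS4m arrays and on 2 arrays of each other group, and gives no reading.
These calls lay close to the threshold. For 1419395_at the SHS4m call was lost without control replicate 3 or 4 or SHS4m replicate 66, 67 or 68 (adjusted p up to 0.0634), and the recovery difference passed without recovery replicate 71 (adjusted p = 0.0398). For 1449457_at the SHS4m call was lost in 7 of 18 alternatives, among them leaving out control replicate 4 or SHS4m replicate 66 or 67 (adjusted p up to 0.113 over all alternatives), and the recovery call in 16 of 18 alternatives, which include leaving out each array in turn except control replicate 2 (adjusted p up to 0.160 over all alternatives). In SHS4m mice the summed signal of the 6 Kupffer cell and macrophage markers was also apart from control. It was 7713 to 9986 in SHS4m mice and 10031 to 12481 in controls, with Clec4f lower (log2 -0.51, adjusted p = 0.0173) and Marco higher (log2 1.90, adjusted p = 0.0137) and none of the 6 below the floor on all arrays, and the part of these cells in the Acot12 result was not tested.

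**Figure D3:**
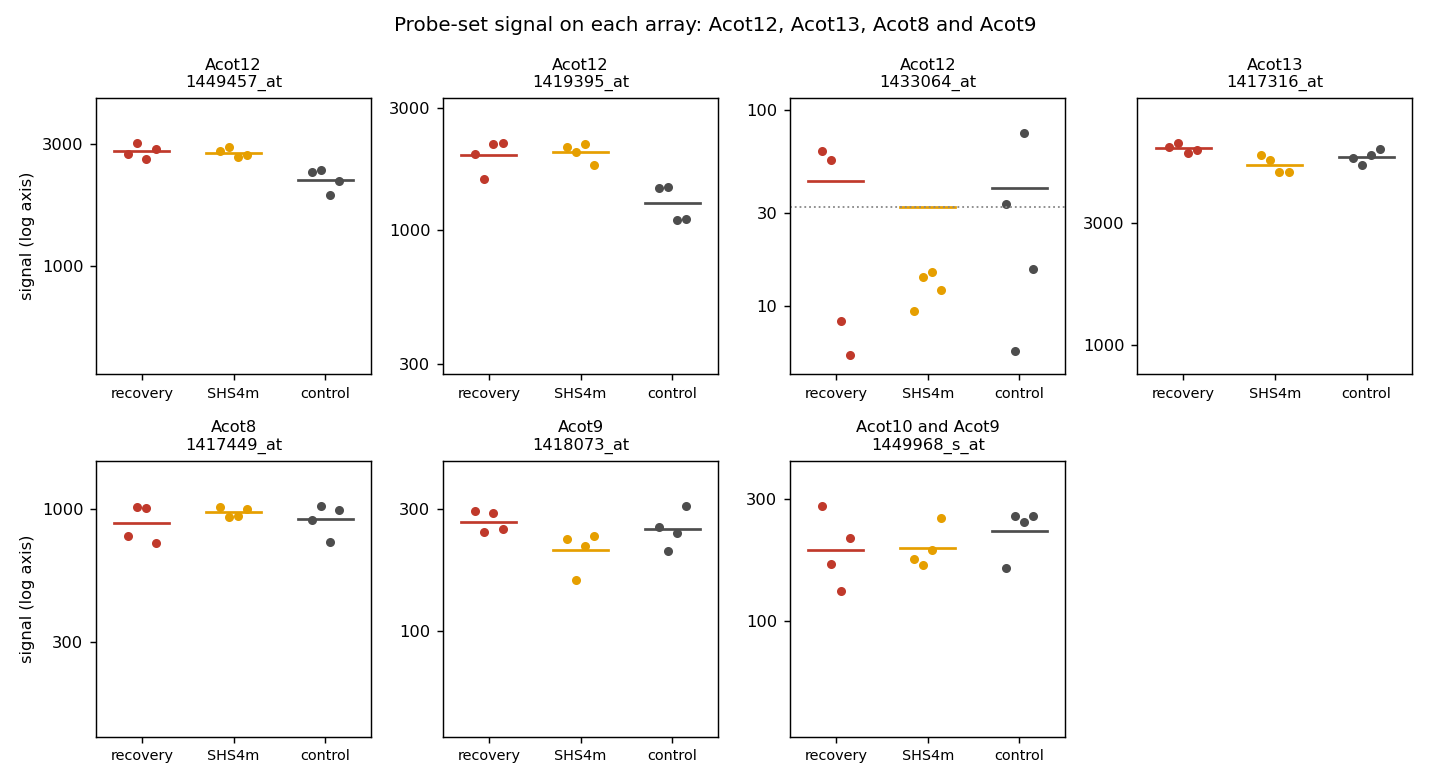
Probe-set signal on each array (y axis, log scale) for Acot12, Acot13, Acot8 and Acot9 in SHS4m+1m recovery mice, SHS4m mice and controls (x axis, 4 arrays per group). Points are arrays, bars are group means taken on the log2 scale after the floor, and the dotted line is the floor of 32. Both exposed groups of the bright Acot12 probe sets lie above all control arrays, and no other panel has both exposed groups above control.

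The remaining type II genes had no call. Acot13, which encodes a thioesterase found at mitochondria that prefers long-chain acyl-CoA, had signals of 5983, 6175, 5623 and 5814 in recovery mice, 5524, 5288, 4775 and 4770.3 in SHS4m mice, and 5402, 5087, 5521 and 5829 in controls. Recovery arrays lay above the SHS4m arrays, and the log2 difference of 0.22 (95% confidence interval 0.08 to 0.35) missed the threshold (limma, adjusted p = 0.104). Acot9, a mitochondrial enzyme, had a difference of 0.37 (interval 0.04 to 0.71, adjusted p = 0.294) between these groups at 1418073_at, with 244 to 294 in recovery mice and 159 to 235 in SHS4m mice. Its second probe set, 1449968_s_at, also names Acot10 and differed by -0.02 (interval -0.58 to 0.54) there. Acot8, the broad peroxisomal thioesterase, had signals of 732 to 1011 in recovery mice, 928 to 1011 in SHS4m mice and 743 to 1026 in controls, and its 3 log2 differences lay between -0.15 and 0.09.

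**Figure D4:**
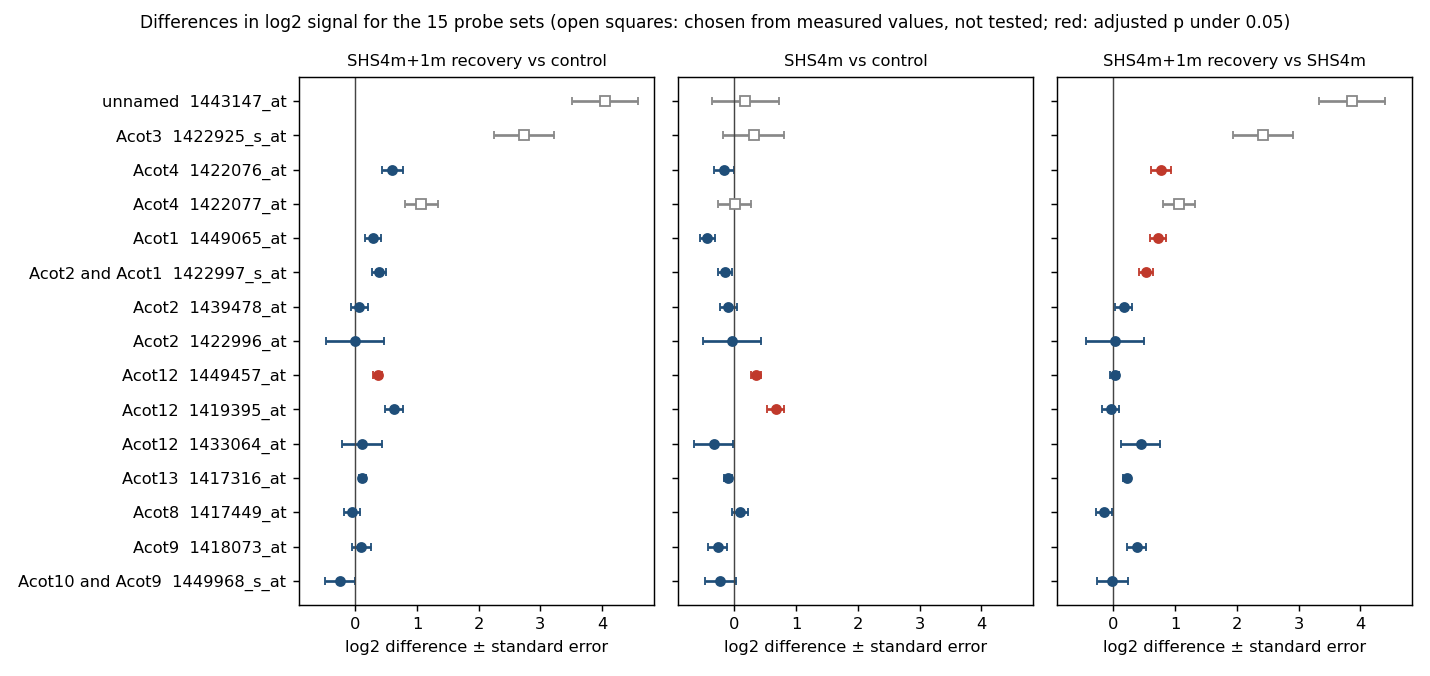
Log2 difference with its standard error (x axis) for the 15 probe sets (y axis) in SHS4m+1m recovery mice against control, SHS4m mice against control, and recovery against SHS4m mice. Open squares are the 3 probe sets chosen from measured values, which were not tested, and red points have an adjusted p under 0.05. Red points are Acot12 alone in both comparisons with control, and Acot4, Acot1 and the probe set shared by Acot2 and Acot1 in the comparison of the exposed groups.

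Counted over the 12 tested probe sets, 1 was called in recovery mice against control, with a higher signal (limma, adjusted p under 0.05), where 0.877% of all 45037 probe sets were called higher and 1.19% lower. In SHS4m mice against control 2 were called, both higher, where 2.52% of all probe sets were called higher and 2.87% lower. Between recovery and SHS4m mice 3 were called, all higher, where 1.32% of all probe sets were called higher and 1.22% lower. Groups that did not overlap were found for 5 of 12 probe sets, all higher, in recovery mice against control, for 2 of 12, both higher, in SHS4m mice against control, and for 5 of 12, all higher, in recovery against SHS4m mice. Over all probe sets the first group lay wholly above the second for 3.25%, 5.13% and 4.26% in these 3 comparisons, and wholly below it for 4.36%, 6.68% and 3.99%. The median log2 difference of the 12 was 0.11, -0.13 and 0.19 in the same order, and that of all probe sets was 0.0 in each. The comparisons share groups, so their counts are not separate evidence, and 6 of the 12 probe sets read Acot2 and Acot12 alone or Acot1 with Acot2.

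Other genes of the acyl-CoA pathway were drawn up with earlier results of these data known and each read by its brightest probe set. Over all probe sets 0.877% were called higher and 1.19% lower in recovery mice against control, and 2.52% and 2.87% in SHS4m mice against control. In recovery against SHS4m mice these shares were 1.32% and 1.22%. Among 10 other thioesterases read of 11 listed, Acot7, a cytosolic enzyme known best from brain, was called higher in recovery than in SHS4m mice (log2 0.42, adjusted p = 0.0260), no other call was made in any comparison, and Baat, the bile acid conjugating enzyme of the same family, had differences of -0.12 and -0.11 from control in recovery and SHS4m mice. Of 13 acyl-CoA synthetases, which make the substrates of thioesterases, Acsm2 fell in recovery mice relative to both control (log2 -0.71) and SHS4m mice (-1.21), and Acsm1 was higher in SHS4m mice than in controls (0.38) and lower in recovery than in SHS4m mice (-0.32), the other 11 having no call. The brightest of these 11, Slc27a2, a very long-chain synthetase and fatty acid transporter, had differences of 0.11 and -0.17 from control in recovery and SHS4m mice. Over 17 genes of mitochondrial β-oxidation there were 4 calls in the 3 comparisons, which share groups, so that the 4 are not separate evidence. Acadl, a long-chain acyl-CoA dehydrogenase, was the one in recovery mice against control (0.35). Acads (0.39) and the isomerase Eci1 (-0.38) were those in SHS4m mice against control, and Eci1 (0.31) was that in recovery against SHS4m mice. Hadh, a hydroxyacyl-CoA dehydrogenase and the brightest without a call, differed from control by -0.09 in recovery mice and -0.07 in SHS4m mice.
Peroxisomal β-oxidation works in the same organelle as Acot3, Acot4 and Acot8. Against control, 1 of 19 genes rose and 1 fell in recovery mice, and 2 rose and 5 fell in SHS4m mice. These counts rest on 1 probe set per gene. Abcd2 had no call in recovery mice by its brightest probe set (log2 0.65, limma, adjusted p = 0.665), while the study lists other probe sets of Abcd2 as higher there. Over all probe sets more were called in SHS4m mice too (2.52% higher and 2.87% lower, against 0.877% and 1.19% in recovery mice), and whether the list differs between the groups was not tested. Nudt7, a hydrolase that breaks down coenzyme A in peroxisomes, fell in SHS4m mice (log2 -1.26, adjusted p = 0.000676) and was higher in recovery than in SHS4m mice (0.96, adjusted p = 0.00498). Crot, which hands medium-chain acyl groups to carnitine, fell in SHS4m mice (-0.55), and Ech1, a dienoyl-CoA isomerase, was higher in recovery than in SHS4m mice (0.39). Nudt19, a further coenzyme A hydrolase, rose in recovery mice (0.59) and SHS4m mice (0.55), and Acox2, the oxidase of branched acyl-CoA, fell in recovery mice (-0.45, and -0.76 relative to SHS4m mice) and rose in SHS4m mice (0.32). The brightest gene with no call, the transporter Abcd3, differed from control by 0.01 and -0.21 in recovery and SHS4m mice. Of 21 read genes of PPARα and its targets (Acot1 among them), 0 were called in recovery mice against control with limma (4 had an unadjusted p under 0.05), where 1.19% of all probe sets were called lower. In SHS4m mice 3 fell (8 had an unadjusted p under 0.05), where 2.87% of all probe sets were called lower, namely Plin2, which coats lipid droplets (-0.89), Fabp1, a fatty acid carrier (-0.48), and Acaa1b, a peroxisomal thiolase (-0.43). The largest differences without a call there went both ways, and these genes were named after their values were seen. They were 1.41 for Angptl4 (limma, adjusted p = 0.0820), -0.89 for Fgf21 (adjusted p = 0.529) and 0.79 for Cyp4a31 (adjusted p = 0.0711). The study lists Angptl4 and Cyp4a31 as higher in SHS4m mice, in part by other probe sets. Acot1 was the 1 gene called between recovery and SHS4m mice, with a higher signal, where 1.32% of all probe sets were called higher. Cyp4a14, a fatty acid hydroxylase and the brightest with no call, differed from control by 0.59 and 0.66 in recovery and SHS4m mice. The median difference of that list was 0.003 in recovery mice and 0.11 in SHS4m mice, against 0.0 over all probe sets. Among 9 genes of coenzyme A supply, Coasy, which completes its synthesis, rose in recovery mice (0.43) and SHS4m mice (0.41), Vnn3 rose in recovery mice (0.63), and Ppcdc, an enzyme of its synthesis, fell in SHS4m mice (-0.51). With limma, 7 of the 9 had an unadjusted p under 0.05 against control in recovery mice (median 0.28) and 3 in SHS4m mice (median 0.03). Pank1, a pantothenate kinase and the brightest with no call, differed from control by 0.28 in recovery mice and -0.03 in SHS4m mice.

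Named genes with the pattern most like that of the unnamed probe set were sought as those with the smallest root mean square difference over the 12 arrays, each probe set taken on the log2 scale relative to its own control mean. Among the members and the probe sets that name 1 gene, Acot3 was the nearest, at 0.842. Both it and the unnamed probe set were chosen from measured values on these arrays, so their nearness follows in part from that choice. Beyond the family the 5 nearest were Rgs16, a regulator of G-protein signalling (1.402), the clock gene Per3 (1.44), the cell cycle kinase Wee1 (1.55), the DNA repair nuclease Dclre1a (1.55) and the protease Pcsk4 (1.56), whereas Acot1 by 1449065_at lay at 2.28. Mean log2 signal relative to control was 2.51 in recovery mice and 1.74 in SHS4m mice for Rgs16, and 2.15 and 0.73 for Per3, beside 4.05 and 0.18 for the unnamed probe set. Control arrays differed among themselves for these genes. All 5 were lower on control replicates 3 and 4 than on replicates 1 and 2. Signals were 26.4 and 42.1 against 164 and 91.5 for Rgs16, and 129 and 52.8 against 235 and 323 for Per3. For Dclre1a the gap was narrower, at 569 and 418 against 612 and 693. The unnamed probe set and Acot3 were low on replicate 3 only. Of 13 clock genes, 3 were called higher and 1 lower against control both in recovery mice (Usp2, log2 3.07, Per2, 1.30, and Tef, 1.23, higher and Clock, -1.18, lower) and in SHS4m mice (Usp2, 3.26, Per2, 1.32, and Tef, 1.05, higher and Clock, -1.02, lower), Clock being named after its values were seen. The shares over all probe sets were 0.877% higher and 1.19% lower in recovery mice and 2.52% and 2.87% in SHS4m mice. Between recovery and SHS4m mice 0 of the 13 were called with limma (2 had an unadjusted p under 0.05). Over all probe sets 1.32% were called higher and 1.22% lower there. The log2 differences of the 13 ran from -0.64 for Arntl to 1.42 for Per3, with Dbp at 1.22 and a median of 0.15. Recovery arrays of Per3 (539 or more) and Dbp (9835 or more) lay above all SHS4m and control arrays (at most 338 and 7943). Dbp, the brightest with no call, differed from control by 1.66 (adjusted p = 0.166) in recovery mice and 0.43 (adjusted p = 0.764) in SHS4m mice. Control replicates 3 and 4 lay below replicates 1 and 2 for Dbp (2376 and 1364 against 7321 and 7943), Usp2 and Tef. They lay above them for Arntl (363 and 434 against 142 and 100) and Clock, while Per1 and Per2 had no such split. The labels give no hour of sampling, so a difference in time of day between the groups cannot be told apart from the exposure, and its part in the thioesterase values was not tested.

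**Figure D5:**
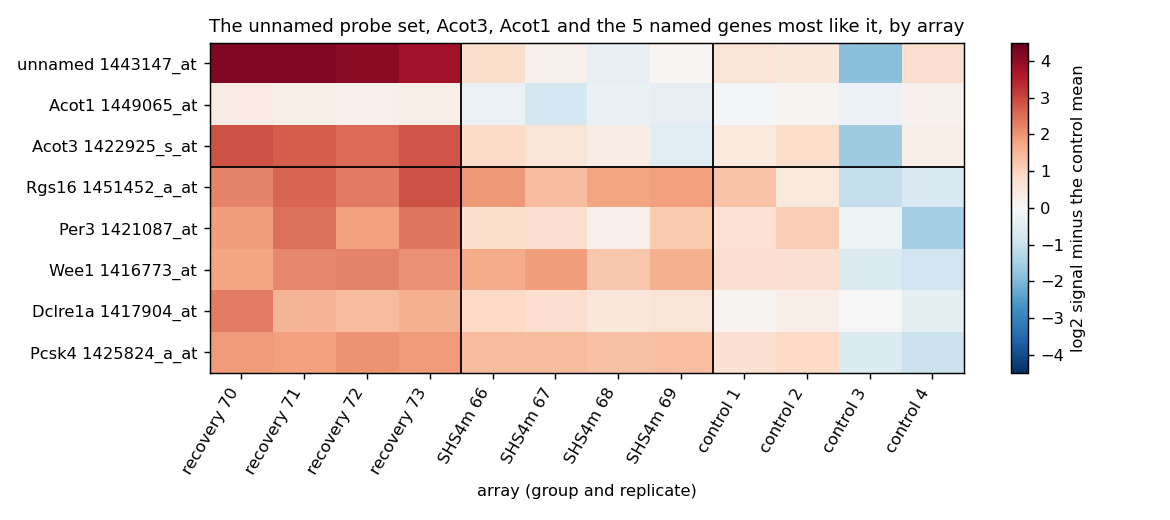
Log2 signal minus the control mean (colour) on each array (x axis, group and replicate) for the unnamed probe set, Acot1 and Acot3 above the line and the 5 named genes most like the unnamed probe set below it. The unnamed probe set and Acot3 are raised on the 4 recovery arrays and low on control replicate 3. The 5 genes below the line are lower on control replicates 3 and 4 than on 1 and 2.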

How the data were processed

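Liver RNA on 12 Affymetrix mouse expression arrays was analysed from the authors' deposited intensity values, 1 per probe set and array, which the authors made with Affymetrix Expression Console. Each array had been scaled so that its mean, leaving out the lowest and highest 2% of values, was 500. The summarisation algorithm and a genome build are not given in the sources used here. Signals under 32 were raised to 32 and log2-transformed, so that a low transcript shows its change only in part. The 45037 probe sets that are not array controls were fitted with limma 3.58.1 (R 4.3.3) in 1 model of the 3 groups, with Benjamini-Hochberg adjustment over all of them and two-sided p-values. The fit was tested on simulated data. Each gene of a list was represented by the brightest probe set assigned to no other gene (932 probe sets name several genes). The members and gene lists were chosen with earlier results of these data known. Named were all members, of each pathway list the called genes (at most the 3 with the largest difference in a comparison) and the brightest gene not called, and the 5 genes most like the unnamed probe set (1443147_at). A few further genes were named after their values were seen. Alternatives were a floor of 16 or at the 25th percentile of the array, quantile normalization, centring on the array median, leaving out probe sets at the floor on 9 or more arrays, only the 8 arrays of a comparison, and each array left out in turn. Promoter windows came from RefSeq (7 of the 8 genes matched), and Python 3.11.15 was used for summaries.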

Additional observations from a re-analysis of the deposited data

Results flagged for a closer look

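In 4 of 44 groups of 4 arrays examined over the member probe sets, 1 array lay apart from the other 3, its gap to the nearest of them taking more of the group's range than Dixon's critical value for 4 arrays. By chance about 1 group in 20 is picked out this way. The share was 0.917 for the unnamed probe set on control replicate 3 (signal 13.5, other controls 170.4 to 198), 0.836 for the Acot2 and Acot1 probe set 1422997_s_at on control replicate 1 (679, others 545 to 565), 0.875 for the Acot10 and Acot9 probe set 1449968_s_at on control replicate 1 (161, others 242 to 257), and 0.951 for Acot12 by 1433064_at on control replicate 3 (76.9, others at or near the floor).

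The change from control differed between SHS4m+1m recovery and SHS4m mice for 3 tested probe sets, by 0.72 on the log2 scale for Acot1 (1449065_at, limma, adjusted p = 0.0224), 0.53 for 1422997_s_at (adjusted p = 0.0419) and 0.77 for Acot4 by 1422076_at (adjusted p = 0.0459). Both changes share the control arrays, so each of these is the difference between the exposed groups given above.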

How the results depend on the processing

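The difference of recovery mice from control and from SHS4m mice kept its direction in all 18 alternatives for the 3 probe sets chosen from their values, from 3.42 to 4.30 against control and 3.69 to 4.07 against SHS4m mice on the log2 scale for the unnamed probe set, 4.61-fold to 8.08-fold and 4.41-fold to 6.08-fold for Acot3, and 0.95 to 1.23 and 0.93 to 1.24 on the log2 scale for Acot4 by 1422077_at. Counts of called member probe sets were less stable. In recovery mice against control the count of 1 became 0 with a floor of 16, a floor at the 25th percentile, arrays centred on their median, probe sets at the floor left out, or only the 8 arrays compared, and lay between 0 and 1 with 1 array left out. In SHS4m mice against control the count of 2 became 1 under the last 4 of these settings and lay between 0 and 2 with 1 array left out. Between recovery and SHS4m mice the count of 3 became 1 with a floor of 16, a floor at the 25th percentile, centred arrays or only the 8 arrays, 2 with quantile normalization or probe sets at the floor left out, and lay between 0 and 2 with 1 array left out, so that 3 was reached in none of the 18 alternatives. No called member changed sign, and the causes of lost calls were not tested. No paired analysis was possible because the groups share no replicate number. Probe sets near the floor (1422996_at and 1433064_at) cannot show a change at this signal.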
